A study of Rattus norvegicus with 12 samples.

Results

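The cytochrome P450 genes of families 2 and 3 were followed in livers of rats fed a high-fat emulsion. All genes of the deposited sheet whose symbol begins with Cyp2 or Cyp3 and a subfamily letter were taken, apart from Cyp2c12, and each gene was represented by its brightest probe set. This gave 30 of the 13926 gene symbols on the array. They fell into the subfamilies 2a (3 genes), 2b (4), 2c (6), 2d (4), 2e (1), 2j (3) and 3a (4), with 5 single genes of the subfamilies 2f, 2g, 2s, 2t and 2u. Of the 30, 27 passed a filter on dim signals and were tested. The probe sets of Cyp2a3a, Cyp2b15 and Cyp2b21 lay under it.

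The 12 samples were total RNA from the middle part of the right liver lobe of Sprague-Dawley rats, an outbred strain, given as 12 weeks old in every group, and each was hybridised to 1 Affymetrix rat genome array. They formed 4 groups of 3 arrays: normal liver at 0h, and liver after 2, 4 or 6 weeks of feeding with the emulsion, which was given to produce a model of nonalcoholic fatty liver disease. The labels call the 3 arrays of a group technical replicates, and the sources used here do not state how many rats stand behind a group, so the p-values below measure only the spread between arrays. The 0h group was the only unfed one and served all 3 feeding times, so the effect of the emulsion, the time passed and whatever else set those 3 samples apart (the labels used here do not state sex) cannot be told apart, and the 3 comparisons with 0h are not independent of each other.

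Cytochrome P450 enzymes are heme proteins that insert an oxygen atom into their substrates with electrons passed on by the reductase Por and by cytochrome b5. Families 2 and 3 handle most drugs in the liver and also hydroxylate steroids, fatty acids and retinoids. Subfamilies 2b and 3a are the classic targets of the drug-sensing nuclear receptors CAR (Nr1i3) and PXR (Nr1i2), and in the rat several 2a, 2c and 3a genes are male-specific or female-predominant under the control of growth hormone secretion.

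At 2 weeks 11 of the 27 genes were higher than at 0h and 3 lower (limma, adjusted p under 0.05), where 15.5% of all tested genes were higher and 12.6% lower. At 4 weeks 12 were higher and 3 lower, where 14.4% of all genes were higher and 15.1% lower. At 6 weeks 10 were higher and 3 lower, with 14.7% and 12.6% of all genes called in these directions. The count of higher genes was above that background at each time, and the count of lower genes near or under it. Among the 3 lower genes at 2 and at 6 weeks was Cyp2a2, read there by a probe set annotated to Cyp2a1. Its calls were lost when certain single arrays were left out. A second probe set, annotated to Cyp2a2 itself, was instead higher at all 3 times (log2 differences 0.62, 1.01 and 0.65). Of the 27, 10 were higher at all 3 times, 2 were lower at all 3, and 11 were called at none. The shares of all genes in these classes are not given here, and the 3 comparisons share their 0h arrays. These counts are thus not set against a background. The largest rise was that of the joint Cyp2b1/Cyp2b2 probe set, 6.10-fold at 2 weeks, and the largest fall was that of Cyp3a9, 4.10-fold at 2 weeks; both changes shrank at the later times. The male-specific Cyp2c11 and Cyp2c13, with Cyp2c22, rose by 1.33-fold to 1.72-fold and Cyp3a18 by 1.41-fold to 1.92-fold, while Cyp2a1, a female-predominant testosterone hydroxylase, fell by 1.48-fold to 1.79-fold. Cyp2e1 and the 2d genes other than Cyp2d3 were not called against 0h. Cyp2d4 lay just outside the threshold at 4 weeks (limma, adjusted p = 0.0503) and was called there in 8 other settings.

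The promoters of 5 genes with called changes are shown, and a part of these sequences in the changes was not tested. They are those of Cyp2b1 and Cyp2b2, which share the probe set that rose most, and of 3 genes of the 3a subfamily. In that subfamily Cyp3a18 and Cyp3a23-3a1 rose and Cyp3a9 fell. Promoter sequences of 29 current genes that the probe sets of the 30 symbols point to were found in RefSeq (assembly GRCr8), as 300 bases from 250 before to 50 after the gene's start. Capitals mark matches, on either strand, to 3 short motifs: the nuclear receptor half-sites AGGTCA and AGTTCA and the STAT-type palindrome TTCNNNGAA. Overlap between motifs was allowed, and the matches below do not overlap.
Cyp2b1, chr1:90645869-90646168, forward strand: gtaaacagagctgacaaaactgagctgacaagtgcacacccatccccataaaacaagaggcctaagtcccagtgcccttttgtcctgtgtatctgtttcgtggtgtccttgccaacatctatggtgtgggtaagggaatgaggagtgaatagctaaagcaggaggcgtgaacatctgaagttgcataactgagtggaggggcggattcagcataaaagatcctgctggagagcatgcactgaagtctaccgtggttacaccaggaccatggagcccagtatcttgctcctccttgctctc
Cyp2b2, chr1:90722031-90722330, forward strand: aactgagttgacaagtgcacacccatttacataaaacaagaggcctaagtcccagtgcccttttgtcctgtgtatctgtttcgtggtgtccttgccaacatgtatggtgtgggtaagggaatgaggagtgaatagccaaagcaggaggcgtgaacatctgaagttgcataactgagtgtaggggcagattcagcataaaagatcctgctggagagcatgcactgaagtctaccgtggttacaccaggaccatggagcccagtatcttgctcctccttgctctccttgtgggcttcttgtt
Cyp3a18, chr12:13994062-13994361, forward strand: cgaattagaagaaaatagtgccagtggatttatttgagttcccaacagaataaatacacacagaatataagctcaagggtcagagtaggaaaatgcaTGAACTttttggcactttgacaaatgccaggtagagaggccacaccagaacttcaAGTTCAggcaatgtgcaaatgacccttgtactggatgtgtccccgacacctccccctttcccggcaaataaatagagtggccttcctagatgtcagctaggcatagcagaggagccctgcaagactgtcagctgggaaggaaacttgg
Cyp3a23-3a1, chr12:14398754-14399053, reverse strand: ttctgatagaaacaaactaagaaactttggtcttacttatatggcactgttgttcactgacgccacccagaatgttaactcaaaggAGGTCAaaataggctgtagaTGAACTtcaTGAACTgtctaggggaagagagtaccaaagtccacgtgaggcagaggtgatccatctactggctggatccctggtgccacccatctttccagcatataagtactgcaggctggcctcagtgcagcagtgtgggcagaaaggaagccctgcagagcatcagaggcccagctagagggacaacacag
Cyp3a9, chr12:21960111-21960410, reverse strand: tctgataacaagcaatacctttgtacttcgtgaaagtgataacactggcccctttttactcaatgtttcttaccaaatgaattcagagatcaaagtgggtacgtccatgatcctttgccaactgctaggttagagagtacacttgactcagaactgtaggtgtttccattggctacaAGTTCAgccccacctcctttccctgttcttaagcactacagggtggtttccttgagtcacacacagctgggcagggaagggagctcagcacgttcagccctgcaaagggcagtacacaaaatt
The Cyp2b1 and Cyp2b2 promoters were identical at 275 of 317 aligned positions (86.8%), against a median of 48.5% over the 406 pairs of these promoters, and held none of the 3 motifs in this window. AGTTCA was found in the promoters of Cyp3a18 (first base at -153 and -98 from the start), Cyp3a2 (-131 and -122), Cyp3a23-3a1 (-144 and -135) and Cyp3a9 (-73). Among all 33469 promoters of the table, 14.5% held AGTTCA, 16.2% AGGTCA and 8.87% TTCNNNGAA, and 9, 10 and 3 of the 29 promoters held them. A match here describes letters, not binding, and AGTTCA stood in the promoters of 3a genes that rose and of the one that fell. AGGTCA stood in those of Cyp3a2 (-150) and Cyp3a23-3a1 (-164), and not in those of Cyp3a18, which rose, and Cyp3a9, which fell.

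Each value below is the authors' array signal, an intensity scaled so that the trimmed mean of an array is about 500. Fold changes come from differences in log2(signal + 1), tested with limma over all 11346 genes above the filter and called at a Benjamini-Hochberg adjusted p under 0.05. The median signal per array was 117.6 to 130.0 and the median SD within a group was 0.16 on the log2 scale. Among the tested genes, 14 lay at or above the 99th percentile of all probe sets on all 12 arrays, near the top of the arrays' signal range, and whether differences are compressed there was not tested. Of the 4-week arrays, replicate 3 was the lowest of its group for 20 of the 27 genes, with a median deviation of -0.07 on the log2 scale, and of the 6-week arrays replicate 1 was the highest for 22 (0.08), while the medians over all genes deviated by at most 0.012. The tissue label was checked on 8 hepatocyte markers, none of which lay under background on all arrays of a group, with a summed signal of 282800 to 328230 at 0h, 289920 to 316680 at 2 weeks, 281310 to 343720 at 4 weeks and 266620 to 309390 at 6 weeks.

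Markers of other cells moved with the groups. Pancreatic Cpa1, a digestive enzyme, averaged 6264 in the 0h group and lay under the background level on 2 or 3 of the 3 arrays of each fed group, while 5 of the 12 acinar markers were under background on all 3 arrays of the 0h group, 4 of the 2-week group and 7 of both later groups. Of the 6 acinar markers tested, 2 were higher and 3 lower at each feeding time (limma), with Pnlip, a lipase, higher by 0.87 at 2 weeks. The summed signal of the 12 ran from 23673 to 25239 at 0h, 19832 to 21330 at 2 weeks, 23564 to 26010 at 4 weeks and 20413 to 21610 at 6 weeks. Macrophage markers (7 found of 8, none of them under background on all arrays of a group) summed to 25817 to 26382 at 0h, 30715 to 32116 at 2 weeks, 19591 to 20567 at 4 weeks and 21543 to 23598 at 6 weeks. The 7 stellate cell markers summed to 5272 to 5402 at 0h, 8475 to 8833 at 2 weeks, 5530 to 5632 at 4 weeks and 4852 to 5068 at 6 weeks. By the test described above, 3 of 7 macrophage markers were higher at 2 weeks, 5 lower at 4 weeks and 3 lower at 6 weeks, and 6 of 7 stellate cell markers were higher at 2 weeks. Of 6 endothelial markers 2 were higher at 2 weeks and 2 lower at each later time, 1 of 3 cholangiocyte markers was higher at 2 weeks, 2 of 6 lymphocyte markers were lower at 2 and at 4 weeks, and all 3 red cell markers were higher at 2 weeks. Of the 8 hepatocyte markers 1 was higher at 2 weeks and 1 lower at 6 weeks. The 3′ minus 5′ log2 signal of GAPDH, which grows as RNA degrades, was 0.16 ± 0.08 in the 0h group, 0.47 ± 0.03 after 2 weeks, 0.33 ± 0.03 after 4 weeks and 0.33 ± 0.04 after 6 weeks (SD, n = 3). Their part in the results below was not tested, and in whole tissue fewer cells of a type and less RNA per cell cannot be told apart.

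Against 0h the median log2 change of the 27 was 0.12, 0.31 and 0.22 at the 3 times, beside medians over all genes of 0.009, -0.03 and 0.005. By subfamily the median change at 2, 4 and 6 weeks was 1.45, 1.20 and 1.04 for the 2 tested 2b probe sets, 0.26, 0.34 and 0.16 for the 6 2c genes, 0.28, 0.40 and 0.28 for the 4 3a genes and 0.30, 0.52 and 0.35 for the 3 2j genes. The 4 2d genes had medians of 0.05, 0.27 and -0.03. The 2a genes are described singly below, since both probe sets of Cyp2a2 were above the filter and differed in direction. The fed arrays lay wholly above or below those at 0h for 17, 17 and 16 of the 27 genes, where 44.4%, 43% and 42.8% of all tested genes were free of overlap. Over the 3 fed groups together the F test called 13 of the 27, where it called 38.6% of all genes. With each array centred on its median instead, 11, 13 and 10 genes were higher and 2 lower at each time. That centring moved the share of rises among all called genes at 4 weeks to 63.0%, against 48.7% with the values as deposited.

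**Figure D1:**
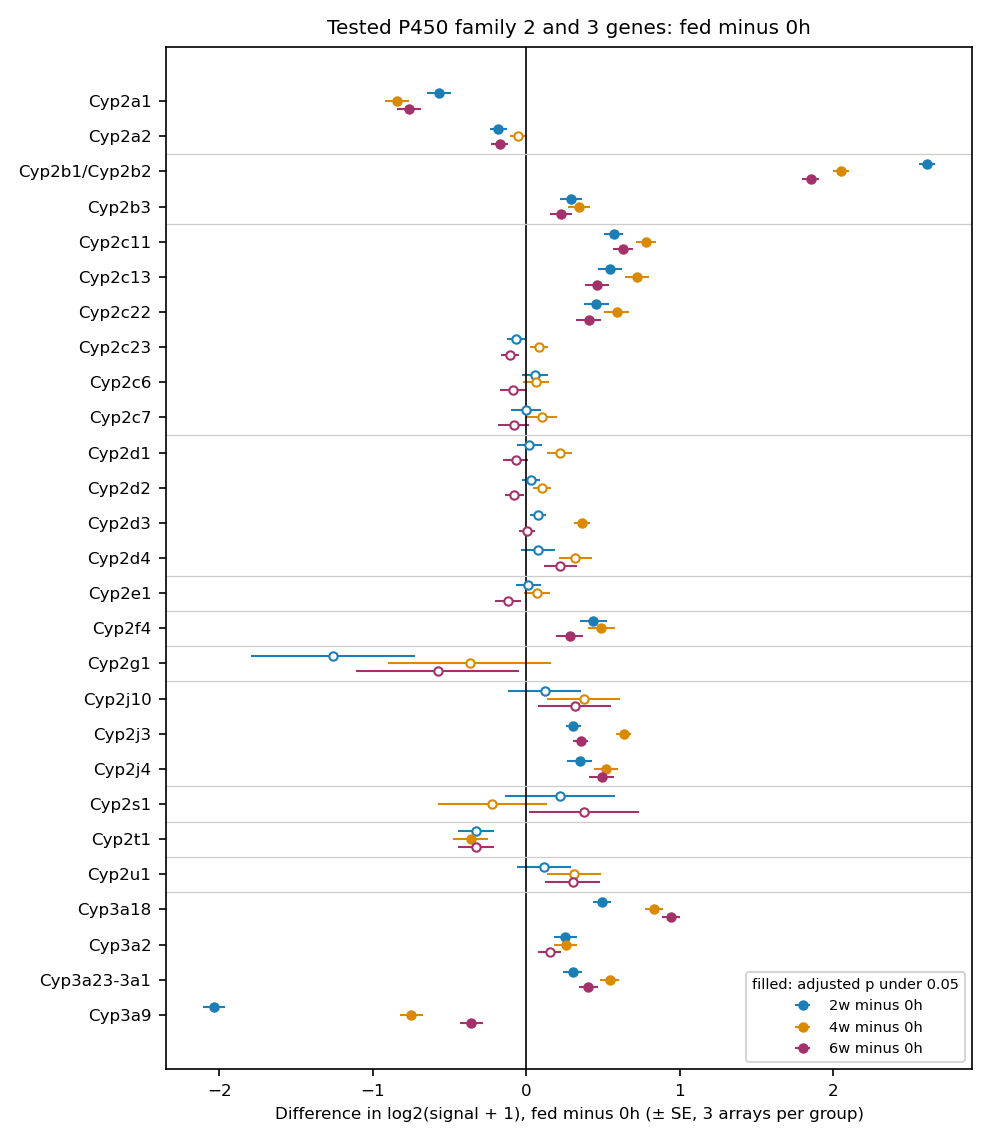
Difference in log2(signal + 1) between each fed group and 0h (horizontal axis, bars show SE, 3 arrays per group) for the 27 tested genes, ordered by subfamily, with filled points for adjusted p under 0.05. The joint Cyp2b1/Cyp2b2 probe set stands to the right at 1.85 to 2.61, Cyp3a9 to the left at -2.03 to -0.36, and Cyp2e1 and Cyp2d2 lie near 0, with Cyp2d3 at 0.36 at 4 weeks.

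Cyp2b1 and Cyp2b2, the phenobarbital-inducible enzymes of rat liver and the standard readout of CAR, are read by 1 joint probe set, so their separate shares are not known. Its signal was 1871.9, 1761.3 and 1789.9 at 0h, 11300.9, 11076.6 and 10713.6 at 2 weeks, 7876, 7370.7 and 7195.4 at 4 weeks, and 6435.2, 6504.4 and 6631.8 after 6 weeks. All 9 fed arrays lay above all 3 arrays at 0h, and no 2 groups overlapped. The log2 change against 0h was 2.61 ± 0.05 (SE) at 2 weeks, 2.05 ± 0.05 at 4 weeks and 1.85 ± 0.05 at 6 weeks (limma, adjusted p = 4.14e-09, 1.23e-08 and 2.89e-08), which is 6.10-fold, 4.13-fold and 3.61-fold. The signal at 4 weeks was below that at 2 weeks by 0.56 ± 0.05 on the log2 scale (limma, adjusted p = 0.000159). The step of -0.20 ± 0.05 between 6 and 4 weeks (adjusted p = 0.0491) lost its call when any 1 of the 12 arrays was left out (adjusted p = 0.0518 to 0.153).

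Cyp2b3, a 2b gene that is not induced by phenobarbital in the rat, changed far less. It had signals of 21851.5, 22377.7 and 21496.4 at 0h, 27266.2, 27831.8 and 25264.2 at 2 weeks, 28752.6, 28911.5 and 25833.3 at 4 weeks, and 27606.6, 24415.4 and 24944.9 after 6 weeks, with every fed array above every 0h array. The rise was 0.29 ± 0.07, 0.34 ± 0.07 and 0.23 ± 0.07 on the log2 scale (adjusted p = 0.0137, 0.00544 and 0.0404 in limma). At 6 weeks the call was lost without any 1 of 8 arrays (adjusted p = 0.0513 to 0.128), which were the 3 arrays at 0h, replicates 1 and 2 at 2 weeks, replicate 1 at 4 weeks and replicates 1 and 3 at 6 weeks, and at 2 weeks without replicate 2 of that group (adjusted p = 0.0518). The other 2b genes, Cyp2b15, whose accession now belongs to Cyp2b12 of the skin, and Cyp2b21 of the oesophagus, were under the filter, with mean signals of 27.7 and 13.1 at 0h.

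The 3a subfamily moved in opposite directions. Its classic members metabolise steroids and many drugs and answer to PXR, and Cyp3a2 and Cyp3a18 are male-predominant in the rat while Cyp3a9 is female-predominant. Cyp3a9 had signals of 13994.2, 13413.5 and 13681.9 at 0h, 3259.9, 3407 and 3365.2 at 2 weeks, 9041.8, 8014.3 and 7467.9 at 4 weeks, and 10983, 10130.7 and 10959.1 after 6 weeks. All fed arrays lay below all 0h arrays, lowest at 2 weeks, and the 4 groups did not overlap. It fell, with log2 changes of -2.03 ± 0.07, -0.75 ± 0.07 and -0.36 ± 0.07 (limma, adjusted p = 1.65e-07, 7.74e-05 and 0.00548), being 4.10-fold, 1.68-fold and 1.28-fold lower than at 0h. Between the feeding times it was higher at 4 than at 2 weeks by 1.28 ± 0.07 (adjusted p = 4.54e-06) and higher at 6 than at 4 weeks by 0.39 ± 0.07 (adjusted p = 0.00875).

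Cyp3a18 went the other way and did not return. Its signal was 10049.6, 10608.9 and 9834.6 at 0h, 14360.8, 14562.6 and 14020.1 at 2 weeks, 18863.9, 18250.3 and 17194.8 at 4 weeks, and 20504.2, 18926.4 and 19168.6 after 6 weeks. The 0h, 2-week and 4-week arrays formed separate ranges in rising order, and the 6-week arrays lay above all arrays at 4 weeks. It rose by 0.49 ± 0.06, 0.83 ± 0.06 and 0.94 ± 0.06 on the log2 scale (limma, adjusted p = 0.000261, 9.55e-06 and 4.04e-06). The gain of 0.34 ± 0.06 from 4 weeks over 2 weeks was called (adjusted p = 0.00522), and that of 0.11 ± 0.06 at 6 weeks over 4 weeks was not (adjusted p = 0.294).

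Cyp3a23-3a1, the 3a gene induced by pregnenolone carbonitrile through PXR, had signals of 22788.9, 24479 and 21732.1 at 0h, 28976.4, 27815 and 28187.2 at 2 weeks, 33805.5, 33618.8 and 33039.3 at 4 weeks, and 32238.5, 29955.6 and 29045.1 after 6 weeks. No fed array overlapped the 0h range. It rose by 0.30 ± 0.06, 0.54 ± 0.06 and 0.40 ± 0.06 (limma, adjusted p = 0.00548, 0.000184 and 0.00109). Its step of 0.24 ± 0.06 between 4 and 2 weeks (adjusted p = 0.0304) lost its call without any 1 of the 6 arrays of those groups (adjusted p = 0.0578 to 0.0969). The male-specific Cyp3a2 rose by 0.25 ± 0.08 at 2 weeks and 0.26 ± 0.08 at 4 weeks (adjusted p = 0.0321 and 0.0301) and was 0.15 ± 0.08 higher, not called, at 6 weeks. Both calls depended on single arrays: at 2 weeks the call was lost without any 1 of the 0h arrays or without replicate 1 or 2 at 2 weeks (adjusted p = 0.0513 to 0.0953), and at 4 weeks without replicate 1 or 3 at 0h or replicate 1 or 2 at 4 weeks (0.081 to 0.0999). The 4-week call was also lost with quantile normalization and with only the groups compared (limma, adjusted p = 0.2 and 0.0708). In the RefSeq annotation Cyp3a18, Cyp3a2 and Cyp3a23-3a1 stand close together on chromosome 12, with 6 genes between Cyp3a18 and Cyp3a2 and 0 between Cyp3a2 and Cyp3a23-3a1, whereas 176 genes lie between Cyp3a23-3a1 and Cyp3a9.

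**Figure D2:**
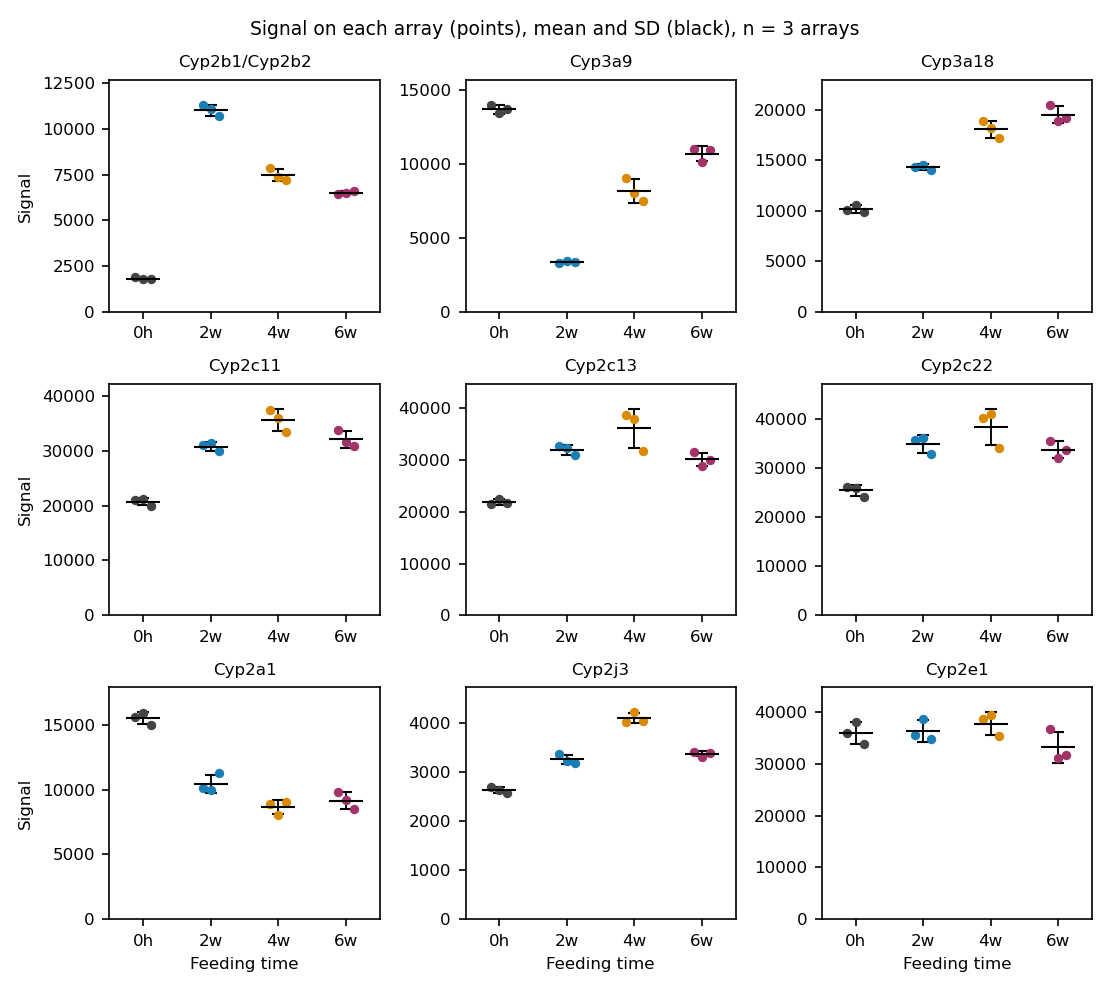
Signal on each array (vertical axis, from 0) by feeding time for 9 genes, with points for single arrays and black bars for the mean and SD of 3 arrays. Cyp2b1/Cyp2b2 peaks at 2 weeks, Cyp3a9 has its lowest arrays at 2 weeks (3259.9 to 3407), Cyp3a18 is highest at 6 weeks, and the Cyp2e1 groups overlap.

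The 2c subfamily split into 3 genes that rose at every time and 3 that were called at none. The risers include the male-specific steroid hydroxylases. Cyp2c11, listed as Cyp2c in the sheet and named here through its RefSeq accession, is the main testosterone 16-alpha hydroxylase of male rat liver. It had signals of 21082.7, 21169.5 and 19902.6 at 0h, 30934.3, 31358.7 and 29879.5 at 2 weeks, 37398.7, 36018.7 and 33297.8 at 4 weeks, and 33748.9, 31553 and 30866.6 after 6 weeks. Every fed array lay above every 0h array, and the 4-week and 6-week arrays overlapped. The rise was 0.57 ± 0.06, 0.78 ± 0.06 and 0.63 ± 0.06 on the log2 scale (limma, adjusted p = 0.000169, 2.27e-05 and 8.52e-05).

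Cyp2c13, likewise male-specific, had signals of 21526.1, 22506.7 and 21576.3 at 0h, 32730, 32251.1 and 30842.3 at 2 weeks, 38661.5, 37905.2 and 31790.4 at 4 weeks, and 31431.4, 28877.6 and 29957.2 after 6 weeks. It rose by 0.55 ± 0.08, 0.72 ± 0.08 and 0.46 ± 0.08 on the log2 scale (limma, adjusted p = 0.000762, 0.000143 and 0.00203). Its probe set is of a kind that can read related transcripts, so other 2c genes may contribute. Cyp2c22, a retinoic acid hydroxylase, had signals of 26254.4, 26003.7 and 24267.3 at 0h, 35777.9, 36290.4 and 32937.6 at 2 weeks, 40219.1, 41028.6 and 34128.8 at 4 weeks, and 35583.9, 32182.8 and 33680.5 after 6 weeks. Neither gene had a fed array inside the 0h range, and replicate 3 was the lowest array of both at 4 weeks. Cyp2c22 rose by 0.46 ± 0.08, 0.59 ± 0.08 and 0.41 ± 0.08 (limma, adjusted p = 0.00281, 0.000621 and 0.00521).

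Cyp2c6, a constitutive enzyme without strong sex bias that phenobarbital also induces, had signals of 39027, 43851.1 and 34484.7 at 0h, 40685.3, 38701.3 and 42322.6 at 2 weeks, 41661.9, 39568.9 and 40627.8 at 4 weeks, and 38373.5, 35960 and 35859.9 after 6 weeks. Each fed range overlapped that of the 0h arrays. Its log2 differences from 0h were 0.06, 0.06 and -0.08 (SE 0.08). Cyp2c7, a retinoic acid hydroxylase that is more abundant in females, differed by -0.004, 0.10 and -0.08 (SE 0.10), and Cyp2c23, an arachidonic acid epoxygenase, by -0.07, 0.08 and -0.11 (SE 0.06), neither called (adjusted p at least 0.227).

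The 2a genes hydroxylate testosterone. Cyp2a1, the female-predominant 7-alpha hydroxylase, had signals of 15611.8, 15905.9 and 14993.8 at 0h, 10122.6, 9978.2 and 11255.7 at 2 weeks, 8868.4, 8040.4 and 9064.1 at 4 weeks, and 9775.2, 9185.1 and 8471.3 after 6 weeks. All 9 fed arrays lay below the 0h range. It fell, with log2 changes of -0.57 ± 0.08, -0.84 ± 0.08 and -0.76 ± 0.08 (limma, adjusted p = 0.000559, 5.15e-05 and 9.2e-05). A brighter probe set with the same accession, listed under Cyp2a2 and described next, changed far less, by -0.18, -0.05 and -0.17. The further step of -0.27 ± 0.08 between 4 and 2 weeks (adjusted p = 0.0468) was lost without any 1 of 10 arrays, all but replicates 1 and 3 at 6 weeks (adjusted p = 0.0573 to 0.141).

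Cyp2a2, a male-specific 15-alpha hydroxylase, has 2 probe sets that disagree. The brighter one carries the accession of Cyp2a1 and is of a kind that reads several transcripts. Its signals were 19965.8, 21055.4 and 20375.2 at 0h, 18052.2, 18319.5 and 17667.9 at 2 weeks, 20492.6, 20160 and 18588 at 4 weeks, and 18512.1, 18402.3 and 17558.8 after 6 weeks. Its changes were -0.18 ± 0.06, -0.05 ± 0.06 and -0.17 ± 0.06 (limma, adjusted p = 0.0343, 0.529 and 0.0446), and the calls at 2 and 6 weeks were lost without any 1 of 6 and 11 arrays (adjusted p = 0.0564 to 0.0978 and 0.0515 to 0.133): the 0h and 2-week arrays for the first, and all but replicate 3 at 4 weeks for the second. The other probe set carries Cyp2a2's own accession.

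That second Cyp2a2 probe set had signals of 8073.8, 8565.9 and 8108.5 at 0h, 12353.9, 12449.3 and 13153.7 at 2 weeks, 17039.9, 16787.7 and 16069.8 at 4 weeks, and 13177.6, 12903.6 and 12793.5 after 6 weeks, every fed array above every 0h array. It rose by 0.62, 1.01 and 0.65 on the log2 scale in a fit over all probe sets above the filter (limma, adjusted p = 0.00013, 5.17e-06 and 8.84e-05), a test added after the data were seen. The direction given for Cyp2a2 thus depends on the probe set. In the annotation Cyp2a1 and Cyp2a2 are direct neighbours on chromosome 1, next to Cyp2a3, whose probe set (Cyp2a3a in the sheet, a gene of lung and nose) was under the filter.

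**Figure D3:**
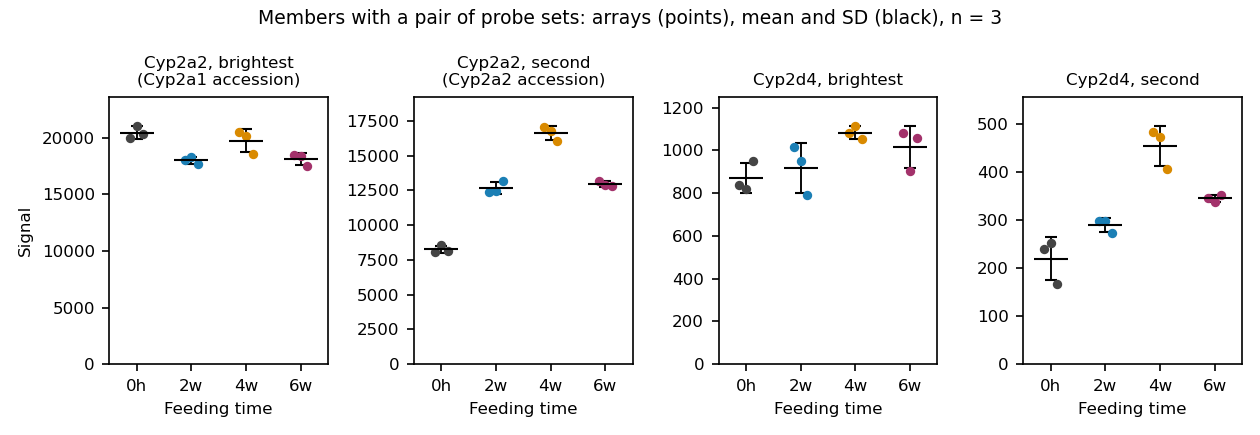
Signal on each array (vertical axis, from 0) by feeding time for both probe sets of Cyp2a2 and of Cyp2d4, with points for arrays and black bars for the mean and SD (n = 3). The brighter Cyp2a2 probe set is lower at 2 and 6 weeks than at 0h, while the one with Cyp2a2's own accession is higher in each fed group.

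The female-specific steroid hydroxylase Cyp2c12 is no member of the set and was far lower in every fed group. Its array signals were 33576.4, 36489.3 and 31864.1 at 0h, 419.9, 426.8 and 538.2 at 2 weeks, 856, 912.1 and 983.7 at 4 weeks, and 1596.9, 1831.2 and 1593.1 after 6 weeks. Of 20 other genes listed as sex-biased in rodent liver, 17 were tested, and 8 rose, 8 fell and 1 was not called at each of the 3 times. The list mixes genes biased to either sex. The 4 genes with the largest change, all female-predominant in rodent liver, were lower: log2 changes at the 3 times were -7.46, -8.17 and -7.49 for A1bg, a plasma protein, -1.39, -4.19 and -2.51 for the sulfotransferase Sult2a2, -2.43, -3.10 and -3.48 for the transcription cofactor Trim24 and -2.12, -2.88 and -2.75 for the prolactin receptor Prlr. Among the 8 that rose were Obp3 (0.60, 1.64 and 1.54), a male-specific urinary globulin, and Stac3 (1.21, 2.23 and 1.83), named after their values were seen. The list was drawn up with results of these data known. The labels used here do not state the sex of the rats. Feeding and a difference in sex between the fed and the 0h samples thus cannot be told apart in any member's change from 0h. The members described here as sex-biased are Cyp2a1, Cyp2a2, Cyp2c7, Cyp2c11, Cyp2c13, Cyp3a2, Cyp3a18 and Cyp3a9. Of these, Cyp2c7, more abundant in females, differed by -0.004, 0.10 and -0.08 and was never called. Its signal lies near the top of the arrays' range. The direction of the male-specific Cyp2a2 depended on its probe set.

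The 2d genes, relatives of the human debrisoquine hydroxylase, gave 1 call against 0h, that of Cyp2d3 at 4 weeks. Cyp2d2 had signals of 28288.5, 30113.6 and 27465.3 at 0h, 29119.5, 29856.6 and 28607.8 at 2 weeks, 31404.9, 31075.6 and 29589.9 at 4 weeks, and 28705.8, 26502.4 and 26198.4 after 6 weeks, and each fed range overlapped that at 0h. Its log2 differences were 0.03, 0.10 and -0.08 (SE 0.06). Cyp2d3 was higher at 4 weeks alone, by 0.36 ± 0.05 (limma, adjusted p = 0.000691), and that level was 0.29 ± 0.05 above 2 weeks (adjusted p = 0.00604), with 6 weeks 0.36 ± 0.05 below 4 weeks (adjusted p = 0.00219). Cyp2d1, whose probe set is also annotated to Cyp2d5, differed by 0.02, 0.22 and -0.07 (SE 0.08), and without replicate 2 at 0h its 4-week difference was called (adjusted p = 0.0198).

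Cyp2d4, the 2d gene best known from brain, was 0.32 ± 0.11 higher at 4 weeks (adjusted p = 0.0503), just outside the threshold, and was called without replicate 3 at 0h, replicate 1 or 3 at 2 weeks or replicate 2 at 6 weeks (adjusted p = 0.0269 to 0.046). Its second, dimmer probe set had mean signals of 220 ± 45 in the 0h group, 289 ± 15 after 2 weeks, 455 ± 41 after 4 weeks and 345 ± 8 in the 6-week group (SD, n = 3), and rose by 1.06 at 4 weeks and 0.67 at 6 weeks (limma over all probe sets, adjusted p = 0.000722 and 0.00874). The 2 probe sets moved the same way by unequal amounts.

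Cyp2e1, the ethanol-inducible enzyme that also oxidises fatty acids and ketone bodies and is often raised in fatty liver, was called in no comparison. It had signals of 35937.9, 38165.7 and 33939.8 at 0h, 35532, 38759.2 and 34764.4 at 2 weeks, 38583, 39470.5 and 35305.6 at 4 weeks, and 36713.9, 31223.8 and 31698.5 after 6 weeks. The 3 fed ranges overlapped that at 0h. Its log2 differences were 0.01 ± 0.08, 0.07 ± 0.08 and -0.12 ± 0.08 (SE; adjusted p = 0.922, 0.589 and 0.34), which does not show that the levels were equal, and its signal lies near the top of the arrays' range.

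The 2j genes encode epoxygenases of arachidonic acid. Cyp2j3 had signals of 2694.6, 2644.6 and 2584.8 at 0h, 3367.8, 3233.4 and 3187.3 at 2 weeks, 4031.4, 4226.7 and 4054.9 at 4 weeks, and 3418, 3320.1 and 3391.9 after 6 weeks. All fed arrays stood above the 0h range and the 4-week arrays above all others. It rose by 0.30 ± 0.05, 0.64 ± 0.05 and 0.35 ± 0.05 (limma, adjusted p = 0.00143, 1.64e-05 and 0.000596), was 0.33 ± 0.05 higher at 4 than at 2 weeks (adjusted p = 0.00208) and 0.28 ± 0.05 lower at 6 than at 4 weeks (adjusted p = 0.00591). Cyp2j4 rose by 0.35, 0.52 and 0.49 (SE 0.08), and Cyp2j10, dimmer and more variable, differed by 0.12, 0.38 and 0.32 (SE 0.24) without a call. In the annotation Cyp2j4 and Cyp2j3 lie side by side on chromosome 5.

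Among the single genes, Cyp2f4, known for bioactivating naphthalene in lung, rose by 0.44 ± 0.09, 0.49 ± 0.09 and 0.28 ± 0.09 (limma, adjusted p = 0.00507, 0.00261 and 0.0391). The 6-week call was lost without any 1 of the 3 arrays at 0h, the 3 at 6 weeks or replicate 1 at 2 weeks (adjusted p = 0.0537 to 0.124). Cyp2t1 differed by -0.33, -0.36 and -0.33 (SE 0.12) and was called at 4 weeks only (adjusted p = 0.0419), a call lost without any 1 of 8 arrays (0.0514 to 0.0941): all 6 at 0h and 2 weeks, replicate 3 at 4 weeks and replicate 1 at 6 weeks. Without replicate 3 at 4 weeks it was instead called at 2 and 6 weeks (0.0143 and 0.0152). Cyp2g1 of the olfactory mucosa, Cyp2s1 and Cyp2u1, enzymes found mostly outside the liver, were not called, with differences of -1.26 to 0.37. Of these, Cyp2g1 had 1 array under background at 2 weeks and was called there without replicate 2 of that group (adjusted p = 0.0465), and at 6 weeks without replicate 1 at 2 weeks (0.034).

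Between feeding times fewer genes differed. From 2 to 4 weeks, 5 of the 27 were higher at 4 weeks and 2 lower, where 5.14% of all genes were higher and 8.03% lower, and 3 of the 5 belonged to the 3a subfamily. The share of rises among all called genes in this comparison was 39.0%, and 50.8% with each array centred on its median. At 6 weeks 1 was higher than at 4 weeks and 3 were lower, against 6.26% and 4.15% of all genes. The median change of the 27 was 0.15 at 4 over 2 weeks and -0.15 at 6 over 4 weeks.

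Among 26 regulators of P450 genes, 24 were tested. Their counts were 6 higher and 9 lower at 2 weeks, 5 and 9 at 4 weeks, and 6 and 9 after 6 weeks, with median changes of -0.23, -0.15 and -0.17. Beside the counts of this and every other list stand 14.4% to 15.5% of all genes called higher and 12.6% to 15.1% lower against 0h. The largest changes were those of Onecut1, a hepatocyte transcription factor, which changed by -2.99, -0.85 and -2.61 on the log2 scale, and of Cux2, a repressor that is female-biased in rodent liver, with mean signals of 306 in the 0h group, 64.5 after 2 weeks, 46.9 after 4 weeks and 45.5 after 6 weeks and 2 arrays and 1 array under background at 4 and 6 weeks. The male-biased repressor Bcl6 rose by 1.57, 1.22 and 2.44, and Nr0b2, which represses other nuclear receptors, rose by 0.94 at 2 weeks and 0.78 at 6 weeks but fell by 1.18 at 4 weeks.

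The 2 drug-sensing receptors, named after their values were seen, went apart. CAR (Nr1i3) had mean signals of 321 ± 9 in the 0h group, 620 ± 32 after 2 weeks, 414 ± 35 after 4 weeks and 397 ± 54 after 6 weeks (SD, n = 3), a rise of 0.95 ± 0.10 and 0.37 ± 0.10 at 2 and 4 weeks (limma, adjusted p = 0.000158 and 0.0247) and an uncalled 0.30 ± 0.10 at 6 weeks (adjusted p = 0.058). PXR (Nr1i2) fell, with log2 changes of -0.47, -0.41 and -0.44 (SE 0.07). Hnf4a, a nuclear receptor that many of these genes depend on, also named after its values were seen, fell as well (log2 change -0.77 at 2 weeks, -0.87 at 6 weeks and a larger one between them, SE 0.09).

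Of 30 phase II enzymes and transporters listed as targets of CAR and PXR, 22 were tested, with 9 higher and 3 lower at 2 weeks, 9 and 3 at 4 weeks, and 8 and 3 after 6 weeks, and median changes of 0.14, 0.03 and 0.06. The member with the largest change was lower: Akr1b7, an aldo-keto reductase, had mean signals of 14352 in the 0h group, 1426 after 2 weeks, 84.6 after 4 weeks and 176 after 6 weeks. The exporter Abcc3 was under background on all arrays at 0h and averaged 110 at 2 weeks, and the bile exporter Abcc2 fell by 0.42 at 2 weeks and 1.13 at 6 weeks. The stress gene Gadd45b fell by 1.74 at 4 weeks, with 1 array there under background.

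**Figure D4:**
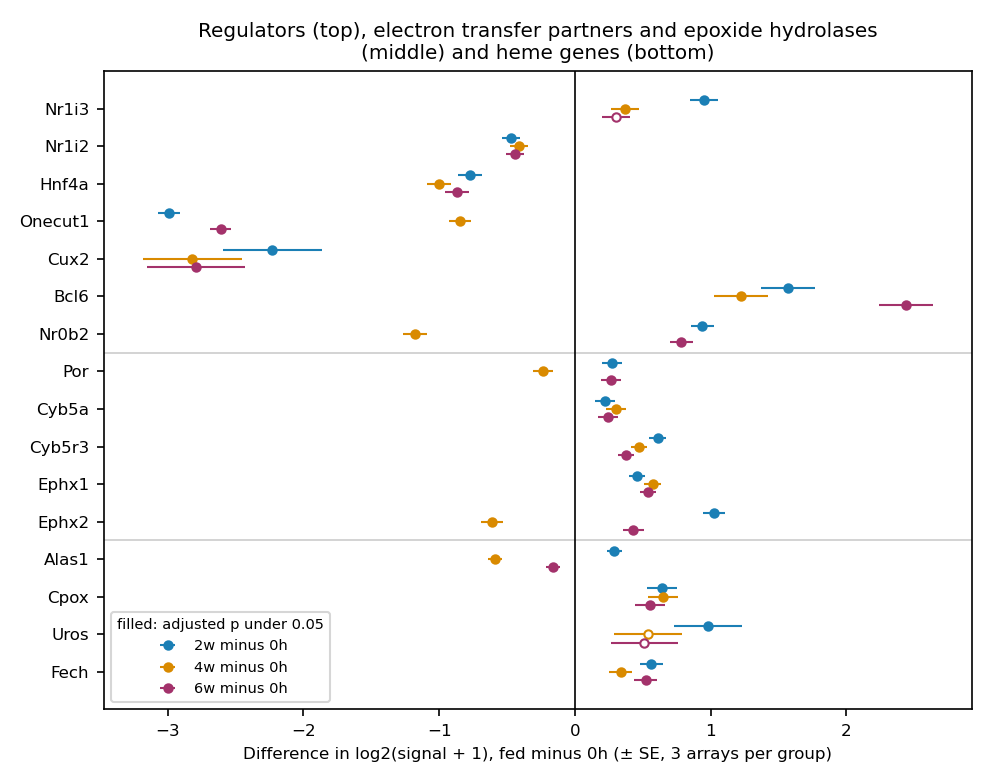
Difference in log2(signal + 1) between each fed group and 0h (horizontal axis, bars show SE, 3 arrays per group) for regulators, electron transfer partners, epoxide hydrolases and heme genes, filled where the adjusted p was under 0.05. Nr1i3 lies to the right with 0.95 at 2 weeks and Nr1i2 to the left of 0 at each time, while Nr0b2, Por and Ephx2 change sides at 4 weeks.

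Of 9 electron transfer partners, modulators and epoxide hydrolases, 6 were higher and 0 lower at 2 weeks (0 at an unadjusted p under 0.05 as well, and likewise at 6 weeks), 3 and 2 at 4 weeks, and 5 and 0 after 6 weeks (limma), with median changes of 0.25, 0.08 and 0.24. Ephx2, which hydrolyses the epoxides that 2c and 2j enzymes make, rose by 1.03 and 0.43 at 2 and 6 weeks and fell by 0.61 at 4 weeks. Cyb5r3, the cytochrome b5 reductase, rose by 0.61, 0.47 and 0.38, Ephx1, the microsomal epoxide hydrolase and a CAR target, by 0.46, 0.57 and 0.54, and Cyb5a, cytochrome b5 itself, by 0.22, 0.30 and 0.24. Por, named after its values were seen as the reductase all these enzymes share, rose by 0.27 at 2 and 6 weeks and fell by 0.23 at 4 weeks.

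All 12 genes of heme synthesis and breakdown were tested, with 7 higher and 0 lower (1 at an unadjusted p under 0.05) at 2 weeks, 3 and 3 at 4 weeks, and 3 and 2 after 6 weeks (limma), with median changes of 0.25, 0.09 and -0.02. Alas1, the rate-limiting enzyme of heme synthesis, rose by 0.29 at 2 weeks and was lower at 4 and 6 weeks (-0.59 and -0.16). Cpox and Fech, which act late in the pathway, rose at each time, by 0.64, 0.65 and 0.55 and by 0.56, 0.34 and 0.52. Uros, an earlier enzyme, rose by 0.98 ± 0.25 at 2 weeks and was not called later.

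Of 23 P450 genes of other families, 19 were tested and 4 were higher and 7 lower at 2 weeks, 2 and 6 at 4 weeks, and 4 and 5 after 6 weeks, with median changes of 0.02, -0.11 and 0.02. Cyp1a1, the target of the aryl hydrocarbon receptor, was under background on 2 arrays at 0h and all 3 at 4 weeks and had mean signals of 233 at 2 weeks and 767 at 6 weeks. Cyp7a1 and Cyp8b1 of bile acid synthesis fell, with log2 changes of -0.50, -2.75 and -2.10 and of -1.44, -1.21 and -2.13, and the fatty acid hydroxylase Cyp4a8 rose by 1.89 at 2 weeks and 1.87 at 6 weeks. Many 2 and 3 family enzymes sit in pericentral hepatocytes, and of 13 tested pericentral genes 0 were higher (2 at an unadjusted p under 0.05) and 2 lower at 2 weeks, 3 and 5 at 4 weeks, and 1 and 4 after 6 weeks (limma). Of 17 periportal genes 3 and 3, 2 and 4, and 2 and 6 were higher and lower at the 3 times. Against 0h 14.4% to 15.5% of all genes were higher and 12.6% to 15.1% lower, and several of these counts lie near those shares. Beside Cyp7a1, the pericentral genes with the largest called change were Tbx3 (-1.51 at 4 weeks, with 1 array there under background), Ahr (-0.91 at 6 weeks) and Oat (-0.84 at 2 weeks), and the periportal ones were the amino acid enzymes Sds (-3.14 at 2 weeks), Tat (-1.2 at 4 weeks), Asl (-1.13 at 2 weeks) and Hal (-1.08 at 6 weeks).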

How the data were processed

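Total RNA of the 12 liver samples was extracted with Trizol and RNeasy columns and labelled with biotin, per the labels. The deposited values are array signal intensities that the authors made with GCOS 2.0, per the submitters' processing notes, and the files show a 2% trimmed mean of 500.2 to 500.3 on every array. The sheet also holds the authors' log2 ratios, deposited for every pair of a fed and a 0h array, which were used as an alternative only. Signals were used with no further normalization. From 31099 probe sets 57 controls were dropped, the brightest probe set of each gene was kept, and 11346 genes with a mean log2(signal + 1) above 5.45 (the 30th percentile of probe sets) were tested with limma 3.58.1 in R 4.3.3, with all 12 arrays in 1 fit of 4 group means and 8 residual degrees of freedom. "Background" means the 30th percentile of an array's signals, 45.5 to 54.0. Linear fold values are 2 to the power of these differences, computed here, and the authors' deposited ratios are named where used.

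The members and lists (regulators, electron transfer partners, heme genes, other P450 families, targets of CAR and PXR, pericentral, periportal and sex-biased genes, and cell type markers) were chosen with earlier results of these data known. All members are named. Values per array are given for members called with at least a 1.5-fold change and for the brightest gene of each subfamily, and at most 4 genes with the largest called change are named per list. Dixon's rule for outliers was not used, as there were only 3 arrays a group. Replicate numbers gave no clear sign of pairing the arrays: same-numbered arrays of different groups had deviations correlated at -0.02 to 0.08 in 18 pairs. A weak pairing could go unseen there. The statistics were tested on simulated data. Figures were drawn with matplotlib 3.10.9. Alternatives were quantile normalization, median centring, other filters, a pseudocount of 16, the mean of probe sets, other variance models, fits on 2 groups, a replicate block, the series matrix, leaving out each array and, added after seeing the data, the second probe sets.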

Additional observations from a re-analysis of the deposited data

Results flagged for a closer look

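Several genes differed between feeding times, in a test of that difference itself (limma, adjusted p under 0.05). At 4 weeks over 2 weeks the log2 differences were 1.285 for Cyp3a9, 0.338 for Cyp3a18, 0.331 for Cyp2j3, 0.289 for Cyp2d3 and 0.242 for Cyp3a23-3a1, and -0.561 for Cyp2b1/Cyp2b2 and -0.272 for Cyp2a1. At 6 weeks over 4 weeks they were 0.391 for Cyp3a9, -0.357 for Cyp2d3, -0.281 for Cyp2j3 and -0.197 for Cyp2b1/Cyp2b2. Cyp2d3 and Cyp2j3 thus peaked at 4 weeks and fell back, while Cyp3a9 moved towards its 0h level in both steps. Some of these calls were fragile. Those of Cyp2a1 and Cyp3a23-3a1 at 4 over 2 weeks were lost without any 1 of 10 and 6 arrays. That of Cyp2b1/Cyp2b2 at 6 over 4 weeks was lost without any 1 of the 12.

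Second probe sets, which the comparisons do not use, gave signals of their own. That of Cyp2a2 was higher than at 0h by 0.617, 1.012 and 0.652 on the log2 scale at 2, 4 and 6 weeks, and that of Cyp2d4 by 1.065 at 4 weeks and 0.673 at 6 weeks. Cyp2b21, too dim to be tested, had a mean signal of 58.2 at 2 weeks, against 13.1 at 0h. Only 1 of its arrays at 2 weeks, at 89.9, was above the highest background level.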

How the results depend on the processing

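Of 135 results (27 genes in 5 comparisons), 53 were called and 39 of these were called in all 22 other settings. Over these settings 9 to 12 genes were higher and 2 to 4 lower at 2 weeks against 0h, 11 to 14 and 2 to 3 at 4 weeks, and 8 to 12 and 2 to 4 at 6 weeks. Called genes kept their direction except Cyp2a2, whose log2 change at 2, 4 and 6 weeks was 0.22, 0.48 and 0.24 with the mean of probe sets and 0.62, 1.01 and 0.65 with its second probe set. Genes higher at 4 than at 2 weeks numbered 8 with a trended, robust variance and 3 with only the groups compared. Genes lower at 4 than at 2 weeks numbered 1 with median centring, no filter, the mean of probe sets, a replicate block or only the groups compared, and 1 to 2 with 1 array left out. Genes higher at 6 than at 4 weeks numbered 2 with quantile normalization and 0 with only the groups compared (limma; 1 had an unadjusted p under 0.05, and Cyp3a9 had an adjusted p of 0.0913). Genes lower there numbered 5 with the stricter filter, 7 with the trended variance and 1 with only the groups compared. With only the groups compared, Cyp2d3 at 4 over 2 weeks and Cyp2j3 at 6 under 4 weeks lost their calls (0.0654 and 0.0662). These fits have fewer samples; the cause of the other shifts was not tested. The replicate block lost 4 calls and gained 1, and the numbers gave no clear sign of pairing the arrays. Without replicate 3 at 4 weeks, Cyp2c11 and Cyp2c13 differed between 4 and 2 weeks (adjusted p = 0.0359 and 0.0282). In the authors' deposited table the log2 ratios of Cyp2b1/Cyp2b2 were 2.6, 2.1 and 1.9 and those of Cyp3a9 -1.8, -0.6 and -0.2. Of the 81 ratios of the authors' deposited table, 0 reversed a called change and 28 moved by more than 1 SD. Probe sets near the top of the signal range and those near background limit what can be told.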
